A study of Mus musculus with 3 samples.

Results

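The genes described here are the receptors for retinoic acid and thyroid hormone and a pair of deiodinases, measured in mouse retina on postnatal day 12. They are the retinoid X receptors Rxra, Rxrb and Rxrg, the retinoic acid receptors Rara, Rarb and Rarg, the thyroid hormone receptors Thra and Thrb, and the deiodinases Dio2 and Dio3. The genes were chosen with earlier results of these data known. Their probes were taken by name alone, from the RefSeq accession that the array design gives each probe, and not by any measured value. All 10 genes were found, on 17 probes, among 21368 named genes and 55681 probes in all. The series holds 3 one-colour Agilent arrays of total retinal RNA at 12 days after birth, with 1 array for each genotype. These are wild-type, Otx2 KI and Crx KO, the last being a knockout by the usual short form and the second a knock-in. The labels give neither the locus of the Otx2 KI, nor the deleted part of Crx, nor strain, sex or how many mice or retinas went into each RNA.

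Retinoid X receptors are the shared partners of a large group of nuclear receptors: they pair with retinoic acid receptors, thyroid hormone receptors, peroxisome proliferator-activated receptors and others, and the pairs bind DNA with or without hormone. Retinoic acid is made inside the eye from retinol by dehydrogenases and is removed by enzymes of the Cyp26 family. Thyroxine is turned into the active hormone T3 by the deiodinase Dio2, while Dio3 inactivates both. In the mouse retina Rxrg and the beta-2 form of Thrb are known for their part in cones, where they help to set the pattern of the short- and medium-wavelength opsins. Crx and Otx2, the genes that the mutants' labels name, encode related homeodomain factors of photoreceptors.

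Values are scaled signals, which are the scanner's background-subtracted Cy3 intensity after each array was brought to the 75th percentile of the wild-type array. Between 63.5% and 67.1% of the 59305 non-control spots per array were well above background, and 0 were saturated. Repeat spots of the probes printed many times scattered with SDs whose median per array was 0.075 to 0.077 (log2). Each of the 17 probes was printed on 1 spot per array and was well above background on all 3 arrays. There is 1 array per genotype, so no difference has a replicate check, no p-value exists, and 2-fold is a threshold of size only. The error given with a log2 difference is the scanner software's own error for the spots, and it does not cover the spread between mice. Crx itself read 9790 in wild-type, 1062 in the Otx2 KI array and 7177 in the Crx KO array, and Otx2 read 40886, 63860 and 62981. Where the Crx probe lies in either changed allele is not in the labels, so it does not check them, and the arrays are named by their labels. The retinal identity of the samples was read from markers fixed as lists: 8 of 8 rod, 7 of 7 bipolar and 6 of 6 amacrine markers were well above background on all 3 arrays. Rod markers stood at least 2-fold under wild-type for 7 of 8 genes in Otx2 KI and for 8 of 8 in Crx KO. Of bipolar, amacrine, ganglion cell, horizontal cell, Müller glia, endothelial and microglia markers 0 were past 2-fold in either mutant. Of 4 lens markers 3 were measured, and all 3 were more than 2-fold higher in Otx2 KI and 0 in Crx KO. In bulk RNA, fewer cells of a type and less RNA per cell cannot be told apart.

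One receptor, Rxrg, was 2-fold or more away from wild-type in both mutants, and the other 9 genes were within 2-fold on their brightest probe. A gene's brightest probe, the one with the highest mean of log2 signals over the arrays, stands for it here. In Otx2 KI the 10 genes had 1 higher and 0 lower, and the background over 15809 measured genes was 3.88% either way (1.35% higher, 2.53% lower). In Crx KO there was again 1 higher and 0 lower, beside 5.38% of 16048 genes (1.95% higher, 3.43% lower). With 10 genes, 1 call is no result about the group as a whole. Past 1.5-fold were 3 and 2 members, beside 10% and 13.3% of all genes. The comparisons share their single wild-type array, so their values are set side by side without a measure of likeness. The median log2 difference of the 10 genes was 0.13 in Otx2 KI and 0.17 in Crx KO, beside medians of 0.03 and -0.01 over all genes measured. Past 1.96 times the software error were both probes of Rxrg and both of Rxra in either mutant. The same held for both probes of Thrb in Otx2 KI and 1 of them in Crx KO. That makes 6 and 5 of the 17 probes, or 3 and 2 of the 10 genes by their brightest probe. Over all genes measured the shares past this error were 16.7% and 21.7%.

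**Figure D1:**
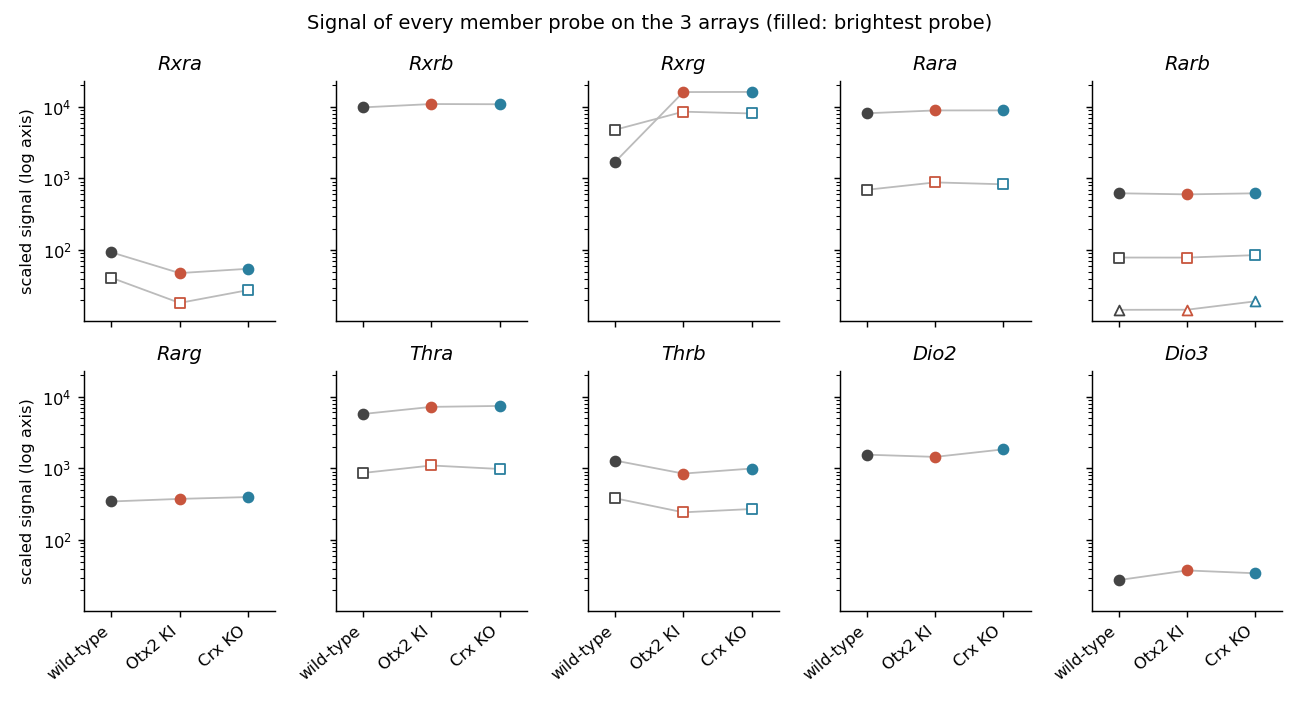
Scaled signal (log axis) of every probe of the 10 genes for wild-type and both mutants, 1 array each; filled circles mark the probe brightest over the arrays, open symbols the others, and heights of different probes are not comparable. Each line is read along itself: Rxrg probe A_51_P513311 goes from 1701 in wild-type to 15927 in Otx2 KI, and A_55_P2044359 from 4755 to 8491.

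**Figure D2:**
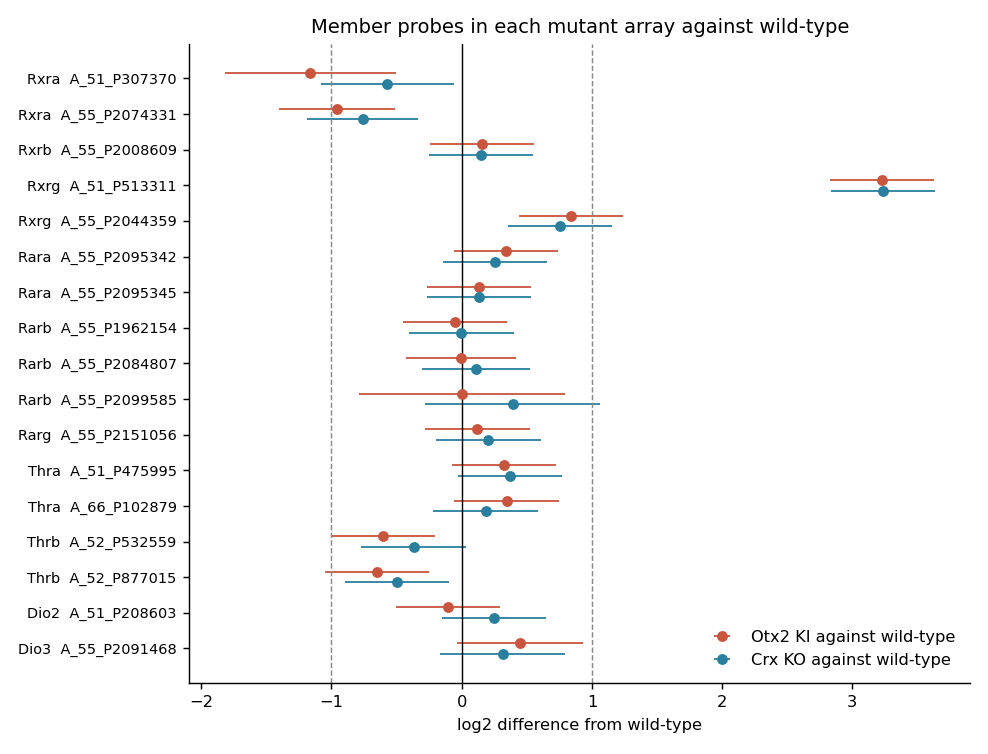
Log2 difference from wild-type of each of the 17 probes in Otx2 KI and Crx KO; bars are 1.96 times the scanner software's error and dashed lines mark 2-fold. Rxrg probe A_51_P513311 stands at 3.23 in both, Rxra and Thrb lie below 0, and the bars of all probes of Rxrb, Rara, Rarb, Rarg, Thra, Dio2 and Dio3 cross 0.

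Rxrg encodes the retinoid X receptor of developing cones, and it was the member with the largest difference in either mutant. The RefSeq table used here lists 2 start sites for it, 19903 bases apart. The 250 bases before each are shown because Rxrg is the member that differs most, with capitals for the nuclear receptor half-site AGGTCA and the homeodomain core TAATCC on either strand (GRCm38.p6, plus strand, 5′ to 3′).
Rxrg first start, chr1:167598112-167598361: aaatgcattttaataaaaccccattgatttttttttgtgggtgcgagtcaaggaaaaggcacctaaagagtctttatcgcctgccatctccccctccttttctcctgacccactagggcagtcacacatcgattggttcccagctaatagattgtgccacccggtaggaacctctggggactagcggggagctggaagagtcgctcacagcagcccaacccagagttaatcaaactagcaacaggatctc
Rxrg second start, chr1:167618015-167618264: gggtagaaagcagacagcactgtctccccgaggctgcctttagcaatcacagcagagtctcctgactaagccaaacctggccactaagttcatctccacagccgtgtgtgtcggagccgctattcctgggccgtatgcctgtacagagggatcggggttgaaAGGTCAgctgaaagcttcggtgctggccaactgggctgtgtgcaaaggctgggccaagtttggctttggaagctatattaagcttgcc
The second window holds 1 AGGTCA, at position -88 counted from the start, and neither window holds TAATCC. Among 32817 windows of the same length before RefSeq starts, 14.0% hold AGGTCA or its reverse complement and 6.25% hold TAATCC or its reverse complement. These matches describe the letters only.

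On probe A_51_P513311 Rxrg measured 1701 in scaled signal in wild-type, 15927 in the Otx2 KI array and 15994 in the Crx KO array. Both mutant arrays were high and close to each other, and wild-type was low. The difference from wild-type was 9.37-fold in Otx2 KI (log2 3.23, error 0.20) and 9.4-fold in Crx KO (log2 3.23, error 0.20). By signed difference it ranked 9 from the top of 15809 genes in Otx2 KI and 25 of 16048 in Crx KO.

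Probe A_55_P2044359, listed under the same transcript, gave a smaller difference in the same direction. It read 4755 in wild-type, 8491 in the Otx2 KI array and 8017 in the Crx KO array. That is 1.79-fold (log2 0.84, error 0.20) and 1.69-fold (log2 0.75, error 0.20) above wild-type, short of 2-fold in both. With the probe that is brightest in wild-type instead, a choice made after seeing these values, Rxrg would be within 2-fold and 0 of the 10 genes would be past it in either mutant.

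Disagreement of this size between probes of a gene was rare on these arrays. Of 4239 genes with at least 2 probes well above background on all arrays, 7 (0.165%, Rxrg included) had log2 differences that lay as far apart as the 2.39 of Rxrg in Otx2 KI. In Crx KO 9 (0.212%) reached its 2.48. The median over those genes was 0.12 and 0.15. The other members with several probes, Rxra, Rara, Rarb, Thra and Thrb, lay 0.02 to 0.21 apart in Otx2 KI and 0.12 to 0.39 in Crx KO. Rxrg was included in this group with its disagreement already known, so these shares are a description. The files give no probe sequence or position, so which transcripts each probe reads is not known here.

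**Figure D3:**
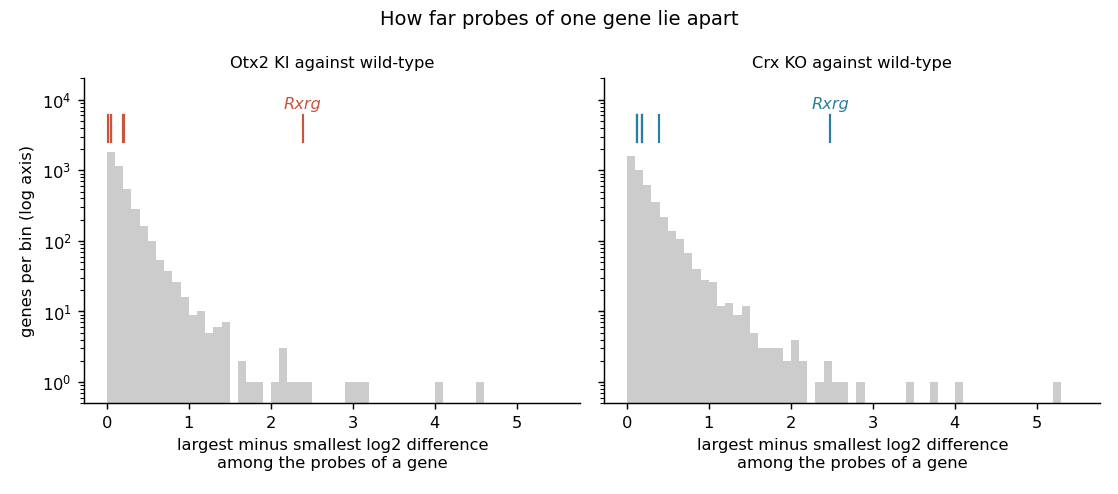
Number of genes (log axis) by the distance between the largest and smallest log2 difference among their probes, for the 4239 genes with at least 2 probes well above background on all 3 arrays; coloured ticks are the 6 members with several probes. Rxrg lies at 2.39 in Otx2 KI and 2.48 in Crx KO, and the other members lie at or below 0.39.

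Markers of cones did not move with Rxrg as one group. Of 10 cone markers, 9 were measured on both arrays of each comparison. In Otx2 KI 4 of these were at least 2-fold lower, 1 was higher and 4 were within 2-fold, with a median of -0.95. The Crx KO array gave the same split and a median of -0.40. The lower genes were Opn1mw, Arr3, Pde6c and Pde6h in both. The higher one was Gngt2, the cone transducin gamma subunit (4.38-fold and 4.11-fold). Opn1sw, the short-wavelength opsin, read 207 in wild-type and was not well above background in either mutant, at least 16.7-fold lower in Otx2 KI and at least 20.9-fold lower in Crx KO. The summed scaled signal of the list was 111372 in wild-type, 161359 in the Otx2 KI array and 154891 in the Crx KO array, most of it from Gngt2 in the mutants. The part of cone number or cone RNA in the Rxrg difference was not tested.

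The genes nearest to Rxrg in pattern depended on its probe. Likeness was the Euclidean distance between centred log2 signals over the 3 arrays, searched among 15741 genes well above background on all of them. Nearest to probe A_51_P513311 were Irf5, an interferon regulatory factor (distance 0.16), B3gnt2, a glycosyltransferase (0.17), Egr2, a zinc finger factor (0.17), the signalling ligand Wnt9a (0.34) and the fatty acid binding protein Fabp7 (0.35). Their increases in Otx2 KI ran from 8.36-fold for Egr2 and Irf5 to 12.8-fold for Fabp7. For probe A_55_P2044359 they were H2al1o, Prss12, Robo3, Adpgk and the gene model Gm30827, at distances of 0.013 to 0.028. These were 1.74-fold to 1.80-fold higher in Otx2 KI. With 3 arrays, many genes with a like ratio will lie close, and the lists say nothing of shared control.

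**Figure D4:**
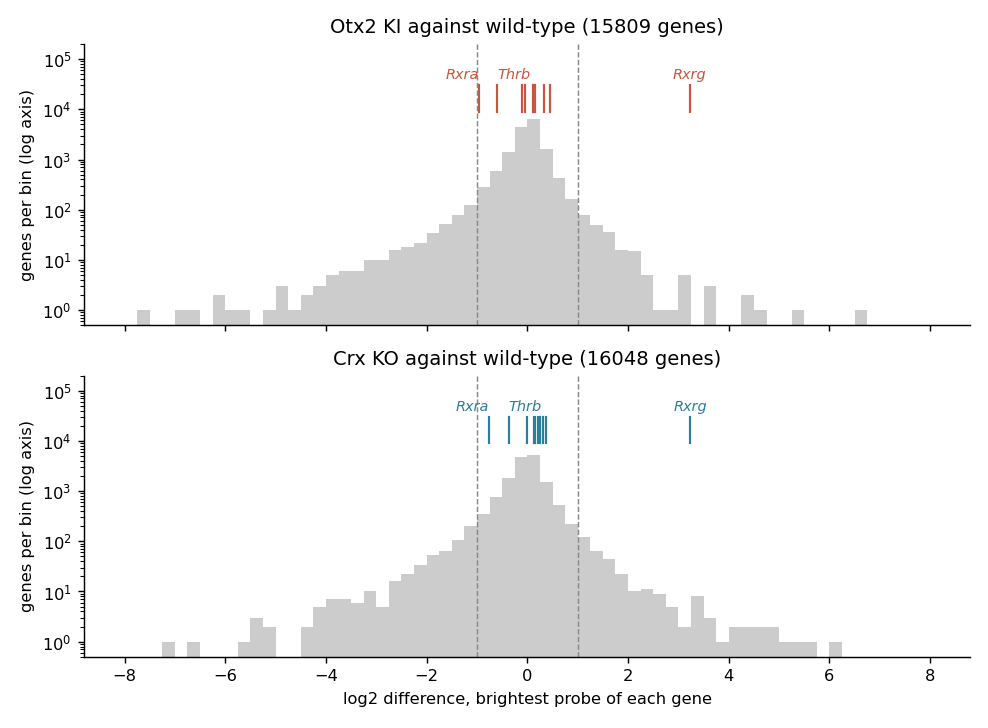
Number of genes (log axis) by log2 difference from wild-type on their brightest probe, in Otx2 KI (15809 genes) and Crx KO (16048 genes); coloured ticks are the 10 members and dashed lines mark 2-fold. Rxrg lies at 3.23 in both, Rxra at -0.96 and -0.76, Thrb at -0.60 and -0.37, and the other members lie between -0.10 and 0.45.

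The other retinoid X receptors differed from Rxrg and from each other. Rxra, a form found in many tissues, was dim. Its brighter probe, A_55_P2074331, read 93.3 in wild-type, 48.0 in the Otx2 KI array and 55.1 in the Crx KO array. This puts wild-type above both mutants, by 1.94-fold (log2 -0.96, error 0.23) and 1.69-fold (log2 -0.76, error 0.22). Its other probe, A_51_P307370, read 41.3, 18.4 and 27.8 in the same order. The ratios to wild-type were 2.24-fold lower (log2 -1.16, error 0.33) and 1.49-fold lower (log2 -0.57, error 0.26), so in Otx2 KI its probes lie on both sides of 2-fold. With their mean Rxra would be called lower there, at log2 -1.06.

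These Rxra signals were low on the scale of the arrays. In Otx2 KI they were 3.9 and 1.5 times the lowest signal that counted as well above background. With normexp background correction, which shrinks differences of dim probes, the log2 differences were -0.45 and -0.30 in Otx2 KI and -0.36 and -0.17 in Crx KO. Pigment epithelium markers were lower in the same arrays: 6 of 7 were measured, 1 of them at least 2-fold lower in Otx2 KI (median -0.90) and 5 in Crx KO (median -1.69). Their summed scaled signal was 5109 in wild-type, 2787 in the Otx2 KI array and 1843 in the Crx KO array, and Best1 was not well above background on any of the arrays. Their part in the Rxra difference was not tested.

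Rxrb, the broadly expressed form, was level across the genotypes. Its probe read 9748 in wild-type, 10850 in the Otx2 KI array and 10781 in the Crx KO array. The log2 differences from wild-type were 0.15 and 0.15 with an error of 0.20 each.

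The retinoic acid receptors stayed near wild-type on all 6 of their probes. These are the receptors that bind all-trans retinoic acid as partners of the retinoid X receptors. Rara read 8066 in wild-type, 8838 in the Otx2 KI array and 8853 in the Crx KO array on its brighter probe, and 694, 879 and 827 on the other. Mutants were above wild-type on both, by at most log2 0.34 (error 0.20). Rarb, itself a known target of retinoic acid, read 621, 599 and 620 on its brightest probe. The second Rarb probe read 79.0, 78.9 and 85.4, and the third, listed under another transcript accession, read 14.8, 14.8 and 19.4, close to the background. Rarg read 346, 376 and 399. Over the 3 genes the log2 differences on the brightest probes ran from -0.05 to 0.13 in Otx2 KI and from -0.0023 to 0.20 in Crx KO, all within 1.96 times the error.

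The thyroid hormone receptors lay on opposite sides of wild-type. Thrb includes the beta-2 receptor of cones, and the beta-1 receptor found in many tissues, and its probes read lower in the mutants. Windows before its start sites are shown because its 2 bright probes both read below wild-type. Capitals again mark AGGTCA and TAATCC on either strand, and the sequences are the 250 bases before 2 of its listed starts (GRCm38.p6, plus strand, 5′ to 3′).
Thrb first start, chr14:17660710-17660959: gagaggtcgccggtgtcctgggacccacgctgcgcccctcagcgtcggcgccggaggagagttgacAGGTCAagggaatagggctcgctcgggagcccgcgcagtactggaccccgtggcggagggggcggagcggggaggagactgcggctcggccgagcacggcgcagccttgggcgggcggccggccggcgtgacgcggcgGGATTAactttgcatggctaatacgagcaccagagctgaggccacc
Thrb second start, chr14:17981394-17981643: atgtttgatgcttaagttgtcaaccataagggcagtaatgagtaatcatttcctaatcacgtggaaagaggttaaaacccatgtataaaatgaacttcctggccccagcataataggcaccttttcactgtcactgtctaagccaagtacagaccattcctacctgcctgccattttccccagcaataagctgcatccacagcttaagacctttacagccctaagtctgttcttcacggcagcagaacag
The first window holds AGGTCA at position -184 and, on the other strand, TAATCC at position -46 (printed as GGATTA). The second window holds neither. Of 17 such windows before starts of 9 members, the first Thrb window was the 1 with TAATCC, and 4 held AGGTCA. Over all 32817 windows the shares were 6.25% for TAATCC and 14.0% for AGGTCA. These matches, too, describe the letters only. Thra was the member with no window in the table used.

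Thrb probe A_52_P532559 read 1285 in wild-type, 846 in the Otx2 KI array and 994 in the Crx KO array. Wild-type was the highest and Otx2 KI the lowest, with log2 differences of -0.60 (error 0.20) and -0.37 (error 0.20). Probe A_52_P877015 put the arrays in the same order, at 383, 244 and 272. Its log2 differences were -0.65 (error 0.20) and -0.50 (error 0.20). None of the 4 values reached 2-fold, but in Otx2 KI both were past 1.5-fold, at 1.52-fold and 1.57-fold. The files list both probes under 1 transcript, and whether they read the beta-1 or the beta-2 transcript is not known here.

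Thra, the more widely expressed thyroid hormone receptor gene, read slightly higher in the mutants. Its brighter probe gave 5724 in wild-type, 7183 in the Otx2 KI array and 7407 in the Crx KO array. The log2 differences were 0.33 and 0.37 (error 0.20 each), within 1.96 times the error. Its other probe gave 864, 1097 and 981, with log2 differences of 0.34 and 0.18. On chromosome 14 Thrb and Rarb are adjacent among the protein-coding genes of GRCm38.p6. Rarb was at log2 -0.05 in Otx2 KI on its brightest probe and Thrb at -0.60. Rara and Thra lie on chromosome 11 with 6 protein-coding genes between them, at log2 0.13 and 0.33.

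The deiodinases were within 2-fold of wild-type. Dio2, the activating enzyme, read 1552 in wild-type, 1445 in the Otx2 KI array and 1840 in the Crx KO array. Crx KO was highest and Otx2 KI lowest, with log2 differences of 0.25 and -0.10 (error 0.20 each). Dio3, the inactivating enzyme, which is highest in fetal tissues, read 27.8, 37.9 and 34.6. That is at most 3.5 times the lowest signal that counted as well above background, and its log2 differences of 0.45 and 0.31 (errors 0.25 and 0.24) do not exceed 1.96 times the error.

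Between the mutants, the members' values lay close. Of the 10 genes 0 were 2-fold apart between Otx2 KI and Crx KO, where 1.32% of 15805 genes were (0.677% higher in Otx2 KI, 0.645% lower). Past 1.5-fold on the brightest probe were 0 members, beside 4.75% of all genes. Their log2 differences, Otx2 KI minus Crx KO, ran from -0.35 for Dio2 to 0.13 for Dio3 with a median of -0.05. By brightest probe 0 of the 10 genes passed 1.96 times the software error, beside 8.88% of all genes. Of all 17 member probes 0 passed it. Rxrg stood at -0.01 on its brightest probe and 0.08 on the other. The widest value was the -0.59 (error 0.35) of the dim Rxra probe A_51_P307370, the 1 member probe past 1.5-fold (1.51-fold). A bright probe such as that of Rxrb (log2 0.01) still carries an error of 0.20, so equality is not shown.

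The other genes of these pathways were counted on the probe that stands for each. Beside the counts of every list below, 3.88% of all genes measured in Otx2 KI and 5.38% in Crx KO were past 2-fold. The lists are short and were chosen with earlier results of these data known, so their counts describe the listed genes only. Of 13 genes for retinoid handling, 11 were measured in Otx2 KI, with 2 higher and 1 lower at the 2-fold mark and a median of 0.28. In Crx KO 12 were measured, with 1 higher and 2 lower and a median of 0.12. Rbp4, the plasma retinol carrier, read 116 in wild-type, 337 in the Otx2 KI array and 623 in the Crx KO array (2.90-fold and 5.36-fold higher). Dhrs3, which turns retinal back into retinol, read 21743, 5784 and 9595 (3.76-fold and 2.27-fold lower). Cyp26b1, a retinoic acid hydroxylase, read 252, 583 and 401 (2.31-fold and 1.59-fold higher). The second lower gene in Crx KO was Stra6, the retinol uptake receptor, at 433, 254 and 199 (1.70-fold and 2.17-fold lower), named after its value was seen. The other genes measured, among them synthesis enzymes of the Aldh1a group and cellular binding proteins, were within 2-fold. Aldh1a2 did not clear background in Otx2 KI, and Cyp26c1 did not on any of the arrays.

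Among 8 genes for thyroid hormone transport, binding and removal, 1 was at least 2-fold lower in each mutant and 0 were higher, with medians of -0.02 and -0.04. This was Ttr, the thyroxine carrier transthyretin, at 7486 in wild-type, 3269 in the Otx2 KI array and 2451 in the Crx KO array (2.29-fold and 3.05-fold lower). Ttr and Stra6 are both made by the pigment epithelium, whose markers were lower in these arrays as given above, and the part of that tissue was not tested. These 2 were picked out after their values were seen, and Rbp4 went the other way (2.90-fold and 5.36-fold higher). The amino acid transporter Slc7a5, which also carries thyroid hormone, read 466, 796 and 835 on the probe that stands for it (1.71-fold and 1.79-fold higher), while its other probe gave log2 0.02 and -0.14. Its relative Slc7a8 was 1.71-fold lower in Crx KO (log2 -0.78).

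The other receptors that pair with retinoid X receptors were within 2-fold on the probe that stands for each, 9 of 9 in both mutants, with medians of -0.24 and -0.08. Ppard read 2613 in wild-type, 1511 in the Otx2 KI array and 1431 in the Crx KO array (log2 -0.79 and -0.87), and Vdr was close to background at 19.1, 15.9 and 27.0. Ppara, a sensor of fatty acids, was the gene whose probes disagreed most of all 4239, although they are listed under 1 transcript. The one that stands for the gene by its mean log2 signal, A_55_P2071601, read 720, 508 and 486 (log2 -0.50 and -0.57). A_55_P2055854 read 1868 in wild-type, 54.3 in the Otx2 KI array and 32.7 in the Crx KO array. These are 34.4-fold and 57.1-fold lower. A_55_P2071596 read 583 in wild-type and was not well above background in the mutants, at least 47.0-fold and 48.4-fold lower. So 2 of the 3 Ppara probes stood far below wild-type and 1 did not, and the choice of probe decides the call.

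Receptor coregulators, 12 genes all measured in both mutants, had median log2 differences of 0.11 and 0.15. Hr, a corepressor that is also induced by thyroid hormone, read 4798, 6838 and 8416 (log2 0.51 and 0.81). The coactivator Ncoa2 stood at log2 -0.50 and -0.39. Of 5 genes known to respond to these hormones, 1 was past 2-fold in either mutant: Mbp, myelin basic protein, at 3824, 9424 and 8073 (log2 1.30 and 1.08). Of the other Mbp probes, 1 read 83.8, 188 and 195 (log2 1.17 and 1.22), and a dim one, at 20.8 in wild-type, gave -0.18 and 0.14. Tgm2 (log2 0.38 and 0.59) and Thrsp (-0.33 and -0.03) were within 2-fold.

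Of 9 regulators of cone fate and cone opsins, 1 was at least 2-fold lower in Otx2 KI and 0 in Crx KO, with medians of -0.00087 and -0.13. Pias3, a SUMO ligase of photoreceptors, read 278 in wild-type, 133 in the Otx2 KI array and 141 in the Crx KO array (log2 -1.06 and -0.98), and with normexp it was within 2-fold in both (-0.75 and -0.65). Rora stood at log2 -0.76 and -0.65 on its brightest probe, but its dim probe, under another accession, gave 0.66 and 1.46. Sall3, at 61.3, 41.0 and 55.8, stood at -0.58 and -0.13. The remaining regulators, among them other nuclear receptors of photoreceptors, were within 2-fold in both mutants.

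**Figure D5:**
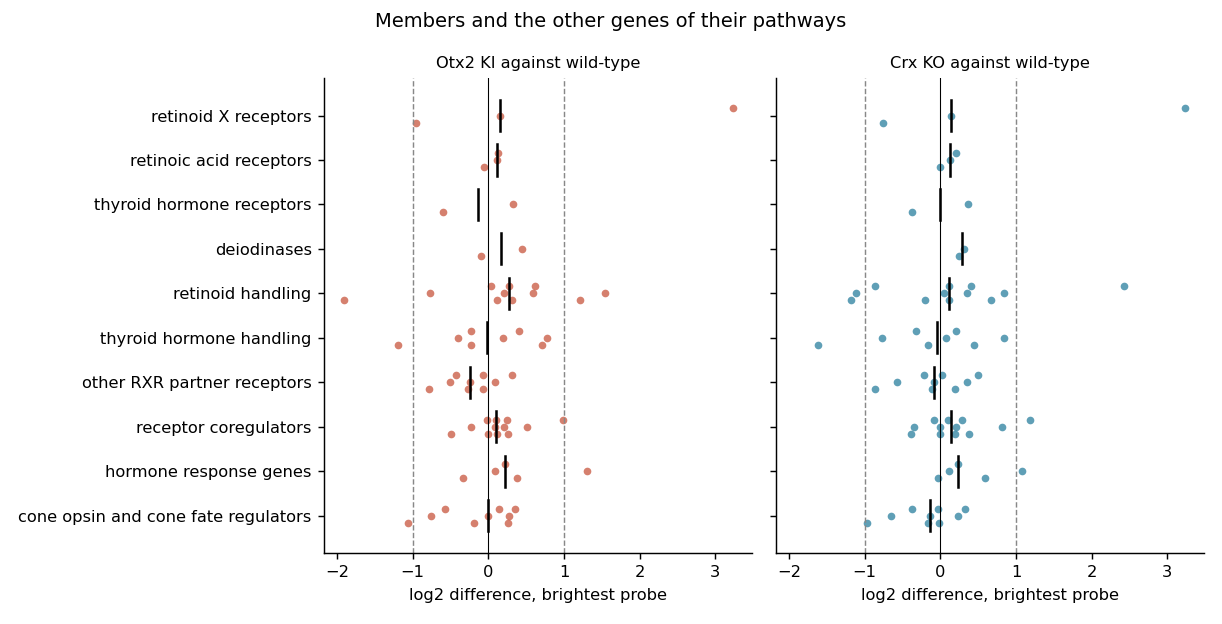
Log2 difference from wild-type on the brightest probe of each gene (points) and list median (black bars), for the member families and the other pathway lists, in Otx2 KI and Crx KO; dashed lines mark 2-fold. Rxrg lies alone at the right of the retinoid X receptors, and Rbp4 (1.54 and 2.42) and Dhrs3 (-1.91 and -1.18) are the outermost genes of retinoid handling.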

How the data were processed

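Total RNA of mouse retina on postnatal day 12 was labelled with Cy3 and hybridised to 1 array per genotype, per the labels' protocols. The deposited scanner files hold intensity values and 0-or-1 flags (other values) per spot, written by Agilent Feature Extraction 12.0.3.1 per the file headers, on a design built on mm9. The authors' deposited value table holds the same processed intensity times 1 constant per array (2.49, 2.54 and 2.61), with medians of 129.8, 125.7 and 135.8. Control spots and outlier spots were left out, spots of a probe were averaged, and log2 processed signal was reduced by each array's 75th percentile. Accessions were matched without version to RefSeq genes of GRCm38.p6, which named 50.9% of probes. Because that is not the build of the files, only names and gene order were taken from it. Upstream sequences carry their own GRCm38.p6 coordinates. The probe whose log2 signal has the highest mean over the arrays stands for a gene, which counts as measured if both arrays flag it well above background. With 1 dim array a bound is given, against the lowest signal so flagged or the dim signal, whichever is higher.

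The members, the 6 pathway lists (56 genes) and 11 marker lists (66 genes) were chosen with earlier results of these data known. Named from each pathway list were the 3 genes with the largest difference in either mutant, and 5 neighbours per Rxrg probe. Alternatives were normexp background correction (limma 3.58.1, on median spot signals because mean signals are not among the columns used here, offset 50), quantile normalization, centring on the median, the authors' table, no filter on dim probes, the mean over probes and a 1.5-fold threshold. Python 3.11.15, numpy 2.4.6 and pandas 2.3.3 were used. The steps were also tested on simulated data. Results for some genes of the lists are not reported here.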

Additional observations from a re-analysis of the deposited data

How the results depend on the processing

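Direction and side of 2-fold held for Rxrg under normexp, quantile normalization, median centring, the authors' table and no dim filter: probe A_51_P513311 ranged from log2 3.18 to 3.23 in Otx2 KI and 3.18 to 3.30 in Crx KO, and A_55_P2044359 from 0.80 to 0.85 and 0.75 to 0.81. The choice of probe moved the count of members past 2-fold. In Otx2 KI it was 1, became 2 with the mean of all probes (Rxra added) and 0 with the probe brightest in wild-type, an alternative chosen after the values were seen. In Crx KO it was 1 and became 0 with that last choice. At 1.5-fold it was 3 and 2. Of 51 probe differences, 50 stayed on their side of 2-fold with normexp. The exception was Rxra A_51_P307370 in Otx2 KI (log2 -0.30). This probe is dim, at 41.3 in wild-type and 18.4 in Otx2 KI, beside a normexp offset of 50. Differences of dim probes shrink with normexp, and the part of the offset alone was not tested. Over all genes, counts past 2-fold were 613 in Otx2 KI and 863 in Crx KO (510 with normexp), and 209 between the mutants (85 with normexp, 318 without the dim filter); at 1.5-fold they were 1582, 2128 and 750. No paired analysis was possible because each genotype has 1 array. Low signal limits Rxra, Dio3 and the dimmest Rarb probe.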

Other observations

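Across the nuclear receptor superfamily, taken after seeing the data as the 44 genes that carry an official receptor code in the RefSeq table, 38 were measured in each comparison. Past 2-fold on the lower side were 2 in Otx2 KI and 2 in Crx KO. They were Esrrb, a receptor that sustains rods, at 22125, 652 and 1666 (33.9-fold and 13.3-fold), and Nr5a1, known for steroid-making tissues, at 3023, 265 and 294 (11.4-fold and 10.3-fold). Both genes had 1 usable probe, so the probe disagreement seen at Rxrg and Ppara could not be looked for there.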
